A study of Mus musculus with 23 samples.

Results

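The interstitial matrix is the fibrous and gel-like scaffold between cells, as opposed to the basement membrane on which epithelia rest. Its fibrils are built from collagens and fibronectin. Proteoglycans fill the spaces between the fibrils, matricellular proteins such as Sparc, thrombospondin-1 and tenascin-C tune how cells attach to them, and the lysyl oxidases crosslink them. Pancreatic ductal adenocarcinoma (PDAC) is known for an abundant, collagen-rich stroma, most of it laid down by fibroblasts, to which the tumor cells add some components of their own. Here 10 interstitial matrix genes were followed in cultures of PDAC cells to which no fibroblasts were added. They are Fbln2, Acan, Fn1, Sparc, Thbs1, Tnc, Col5a1, Lox, Loxl2 and Bgn, out of 27207 genes in the counts table. The genes were chosen by name with their levels in these libraries already known, and Fbln2 and Acan because they differed between day 7 and day 13 of growth in collagen. Levels and differences of the 10 genes are therefore given as a description and without p-values.

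RNA was measured in 23 bulk libraries of 6 groups. KC cells came from the tumor of 1 mouse that carried Ptf1a Cre/+, in which Cre is driven by a gene of pancreatic progenitors and acinar cells. KPC cells came from the tumor of 1 other mouse, which carried Pdx1 Cre/+, so that genotype and cell line cannot be told apart. The KC cells were grown as a monolayer on plastic (2D, n = 6), as organoids in Matrigel to day 13 (n = 3), as organoids in floating collagen gels to day 7 (n = 3) or to day 13 (n = 5), and again in collagen to day 13 in a second batch (n = 3). The KPC cells were grown in collagen to day 13 in that second batch (n = 3). In collagen, day 7 belongs to the phase of branch extension and day 13 to that of lumen formation. The 2D cells were lysed directly, whereas the organoids were first freed with collagenase, and this difference in handling cannot be told apart from 2D culture. Levels are given in CPM, the usual scaling of the count of a gene to the effective size of its library (total count times TMM factor).

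Each library held 1221451 to 2471058 counts of unique RNA molecules. Only 3' ends were counted, and levels of the 10 genes are compared between libraries and not between genes. At these depths 3 counts correspond to 1.16 to 3.22 CPM, and a gene with at most 3 counts in every library of a group is called near the detection limit there. Pairs of libraries within a group differed by more than sampling noise in all groups, and none was counted as a duplicate. Such an excess does not show that the libraries came from independent cultures. The 2D libraries fell into a pair of sets, replicates 1 to 3 and replicates 4 to 6. Their counts differed by a chi-square per degree of freedom of 1.27 to 2.90 within a set and of 21.6 to 33.7 between the sets, and the ranges of 47.5% of the 11144 tested genes did not overlap between them. The 5 KC collagen libraries of day 13 in the first batch showed a smaller divide between replicates 1 to 3 and replicates 4 and 5 (2.06 to 3.11 within, 4.64 to 6.76 between), and 36.4% of genes did not overlap. Both sets were seen in the data and are not named in the labels. All 2D libraries were fitted as separate replicates. If each 2D set came from 1 culture, the p-values of the 2D comparisons would be too small. Called differences of the 10 genes are given without a set where leaving it out ends the call or moves the value by over 1.5 times.

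The summed level of 8 ductal epithelium markers was 7019 to 13891 CPM, most of it from the keratins Krt7, Krt8, Krt18 and Krt19. Cdh1 was at 109 to 313 CPM, whereas Epcam ranged from 4.65 to 191 CPM and Cldn7 from 0.490 to 231 CPM, and Cldn4 had counts in 7 of 23 libraries and at most 8. Of 10 fibroblast markers, Thy1 had no count in any library, which allows up to 3 counts per library, and Pdgfra had at most 4 counts, Fap, Lum and Dpt at most 2 and Col1a1 at most 7. Col1a2 (19.5 to 97.7 CPM), Col3a1 (6.86 to 56.9 CPM), Dcn and Pdgfrb had counts in all 23 libraries. The summed level of the 10 fibroblast markers was 61.5 to 188 CPM in 2D, 58.9 to 83.9 in Matrigel, 54.6 to 88.7 at day 7, 50.1 to 103 at day 13 in the first batch, 42.4 to 59.3 in KC of the second batch and 32.7 to 49.2 in KPC. The 5 endothelial markers summed to at most 2.67 CPM, with no count of Kdr or Emcn. The 4 measured macrophage and leukocyte markers summed to 3.41 to 36.6 CPM, nearly all of it Cd68, and Ptprc had at most 3 counts. Of 2 measured acinar markers Cela1 had counts in all 23 libraries, and their sum ran from 2.98 to 3.43 CPM at day 7 to 12.7 to 17.4 CPM in KPC. Whether a few other cells contributed to the levels below was not tested, and fewer cells of a type cannot be told apart from less RNA per cell.

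All 10 genes passed the filter on low counts and were among the 11144 genes tested. A gene was called at an adjusted p-value under 0.1 in edgeR's quasi-likelihood test over all tested genes. Between Matrigel and collagen at day 13, 2 of the 10 were called, both higher in Matrigel, beside 12.9% of all genes. Between day 7 and day 13 in collagen it was 3, all higher at day 7, beside 55.1%. KPC organoids had 2 called higher than KC organoids of the same batch, beside 19.9%. Between the batches of KC collagen organoids 1 was higher and 1 lower in the second batch, beside 37.3%. Of the comparisons of 2D cells, that with day 7 organoids had 3 called higher and 2 lower, beside 51.2%, and that with day 13 organoids 5, all higher, beside 49.6%. The median log2 difference of the 10 genes lay between -0.03 (second against first batch) and 0.72 (2D against day 13), with that of all tested genes between -0.05 and 0.02. Since the genes were chosen with these values in view, nothing is read from the counts.

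**Figure D1:**
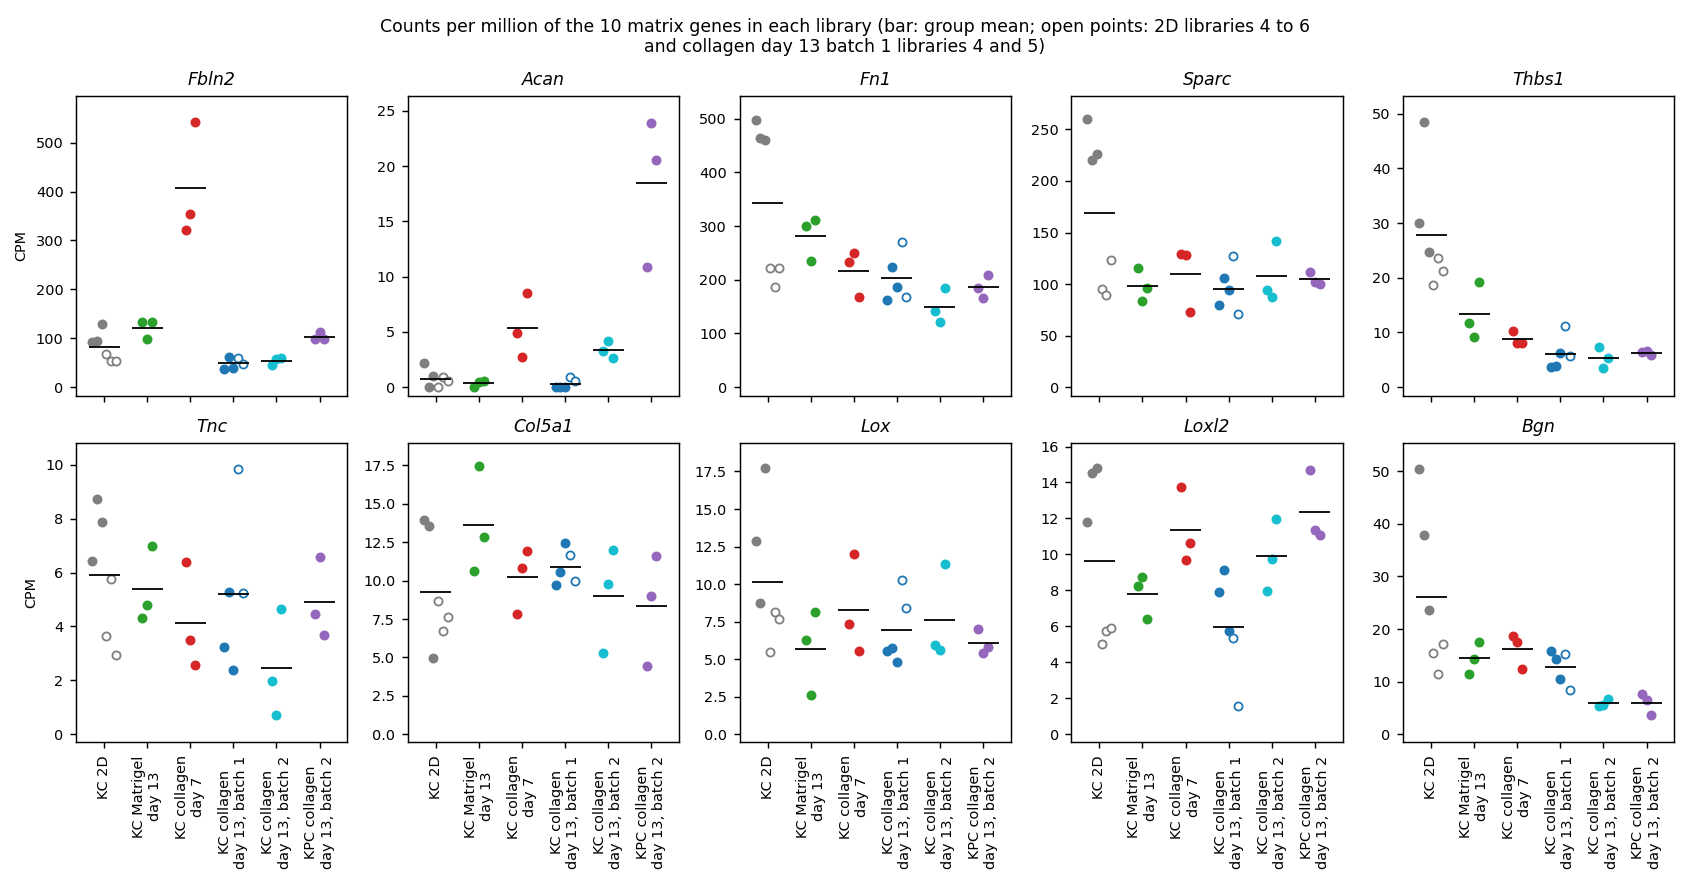
CPM (linear axis that includes 0) of each of the 10 genes in each of the 23 libraries, by group. Points are libraries, bars are group means, and open points mark 2D libraries 4 to 6 and collagen day 13 batch 1 libraries 4 and 5. Fbln2 is highest in the 3 day 7 libraries (322 to 543 CPM) and Acan in the 3 KPC libraries (10.9 to 23.9 CPM). In CPM, which includes the TMM factors, the filled 2D points lie above the open ones in 8 of 10 genes.

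Fbln2 and Acan differed most between the organoid groups, and both were higher at day 7 and in KPC. Fbln2 encodes fibulin-2, a glycoprotein that binds fibronectin, proteoglycans and basement membrane proteins. Acan encodes aggrecan, the large chondroitin sulfate proteoglycan best known from cartilage. The 250 bases before their annotated starts are shown because these are the 2 genes that were higher both at day 7 and in KPC, with the start taken from RefSeq on GRCm38.p6 and with matches to a TEAD motif or a GC box in capitals. They lie at chr6:91212514-91212763 on the plus strand for Fbln2 and at chr7:79052976-79053225 on the plus strand for Acan.
Fbln2: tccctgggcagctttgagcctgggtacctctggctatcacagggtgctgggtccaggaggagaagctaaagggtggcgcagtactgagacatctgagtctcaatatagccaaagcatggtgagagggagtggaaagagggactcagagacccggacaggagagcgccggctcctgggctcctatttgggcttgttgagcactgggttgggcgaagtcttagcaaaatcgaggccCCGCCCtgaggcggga
Acan: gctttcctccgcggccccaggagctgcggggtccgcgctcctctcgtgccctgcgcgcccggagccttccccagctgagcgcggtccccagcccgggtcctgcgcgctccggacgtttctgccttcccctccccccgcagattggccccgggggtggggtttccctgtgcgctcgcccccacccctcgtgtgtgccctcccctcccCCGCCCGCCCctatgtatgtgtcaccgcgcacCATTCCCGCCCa
The search covered 300 bases, 250 before and 50 after the start, on both strands, for AP-1 (TGANTCA), TEAD (GGAATG), the TATA box (TATAAA) and the GC box (GGGCGG). Fbln2 had 2 GC boxes, of which 1 lies after the start and is not shown. Acan had 3 GC boxes and 1 TEAD match, in which the TEAD letters overlap the GC box nearest to the start. Neither gene had an AP-1 or a TATA match. In all 32851 windows of that length, 35.7% held a GC box, 14.7% a TEAD match, 13.6% a TATA box and 7.81% an AP-1 match, so that a GC box is a common feature. Promoter windows were found for 6 of the 10 genes (Fbln2, Acan, Col5a1, Tnc, Sparc and Bgn), and Tnc had 2. None of the 6 held an AP-1 match and only the Tnc windows held a TATA box. Col5a1 held 2 GC boxes, Bgn 3, each Tnc window 1 and Sparc none. Fn1, Thbs1, Lox and Loxl2 were not matched.

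The level of Fbln2 was 322, 355 and 543 CPM in the 3 libraries of day 7. At day 13 in collagen it was 37.1, 61.4, 39.7, 60.5 and 46.8 CPM in the first batch and 45.7, 57.2 and 59.98 CPM in the second. Every day 7 library thus lay several times above every day 13 library of the same cells. The fitted difference was 8.27-fold (log2 3.05 ± 0.22 SE), and the means were 406 ± 119 (SD, n = 3) and 49.1 ± 11.4 CPM (n = 5). The log2 difference was 3.16 ± 0.28 without collagen replicates 4 and 5 and 2.91 ± 0.31 without replicates 1 to 3. In Matrigel at day 13 Fbln2 was at 134, 97.7 and 133 CPM, above all KC collagen libraries of that day without overlap and 2.47-fold over those of the first batch (log2 1.30 ± 0.23, or 1.42 ± 0.28 and 1.17 ± 0.30 without the same sets). In KPC it was at 98.4, 114 and 98.7 CPM, also above the 3 KC libraries of the batch. The ratio was 1.91 (log2 0.93 ± 0.27), and it was no longer called without KC replicate 1 of the second batch (0.82 ± 0.32). The KC libraries of both batches overlapped (log2 0.14 ± 0.25). In 2D the level ran from 53.8 to 129 CPM with a median of 80.5, so that the order of group means was day 7, Matrigel, KPC, 2D, and the second and first batch of KC at day 13. Only day 7 stood apart from its neighbor in this order, and the ranges of the other neighbors overlapped.

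Acan was near the detection limit in 3 of the 6 groups. In the first batch it had 0 to 2 counts per library in 2D, 0 or 1 in Matrigel, and 0, 0, 0, 2 and 1 counts in collagen at day 13. Both sets of 2D libraries included a library without a count. At day 7 the libraries held 7 to 20 counts (4.90, 2.71 and 8.53 CPM). In the second batch Acan was at 3.31, 4.18 and 2.67 CPM in KC and at 10.9, 23.9 and 20.6 CPM in KPC. These KPC libraries were the highest of the series, and the KC libraries of the second batch overlapped those of day 7. Pooled over libraries and scaled for depth, day 7 held 18.5 times the Acan of day 13 in the first batch, from 37 against 3 counts, with a 95% interval of 5.87 to 93.9 that covers counting error only. The corresponding ratio between the batches of KC organoids at day 13 was 11.8 (15 against 3 counts, 3.33 to 63.5). The fitted day 7 difference was a log2 of 3.93 ± 0.68. It was 4.83 ± 0.81 without collagen replicate 4, 2.77 ± 0.77 without collagen replicates 1 to 3, and 2.05 ± 0.63 when both batches of day 13, 8 KC libraries in all, were the reference. All 3 counts of the first-batch group lay in replicates 4 and 5. Without these the reference held no count, and the fitted values of 6.30 ± 1.08 for day 7 and 5.68 ± 1.25 between the batches depend on the prior count and are no bound. The KPC against KC difference within the second batch was 5.41-fold (log2 2.44 ± 0.48, n = 3 and 3), and against all 8 KC libraries of both batches it was a log2 of 3.84 ± 0.53. The batches of KC organoids differed in Acan by a log2 of 3.28 ± 0.81, which was 4.20 ± 0.95 without collagen replicate 4 and 2.12 ± 0.87 and not called without collagen replicates 1 to 3. In fits of the compared groups alone the filter on low counts removed Acan from both comparisons, so that it has no value there. Batch and the other conditions of the second batch cannot be told apart. Against 2D the day 7 level was higher, with a pooled 2D to day 7 ratio of 0.126 (6 against 37 counts, 0.0436 to 0.302).

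Loxl2 was the remaining gene called at day 7. It encodes one of the lysyl oxidases, the copper enzymes that oxidize lysines of collagen and elastin so that crosslinks form. It was at 13.7, 9.68 and 10.7 CPM at day 7, and at 7.88, 9.11, 5.74, 5.37 and 1.58 CPM at day 13 in the first batch. The 3 day 7 libraries lay above all 5, the closest pair being 9.68 and 9.11 CPM, and the difference was 1.87-fold (log2 0.90 ± 0.34). It was not called without day 7 replicate 1 (0.74 ± 0.39). Without the collagen replicates 4 and 5 (0.59 ± 0.33) or against all 8 KC libraries of day 13 (0.63 ± 0.33) it was not called either, while without replicates 1 to 3 it was a log2 of 1.63 ± 0.47. In the second batch Loxl2 was at 7.95, 9.76 and 11.99 CPM in KC and at 14.7, 11.4 and 11.1 CPM in KPC, which overlapped each other and the day 7 libraries. Lox, the founding member of the family, was at 5.54 to 12.01 CPM at day 7, at 4.79 to 10.3 and 5.58 to 11.3 CPM at day 13 in the batches of KC, at 5.39 to 7.03 CPM in KPC and at 2.62 to 8.16 CPM in Matrigel. None of these ranges was separate from the others. Its group means, from 5.69 CPM in Matrigel to 10.1 in 2D, differed by 1.78-fold, and it was called in none of the 6 comparisons.

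**Figure D2:**
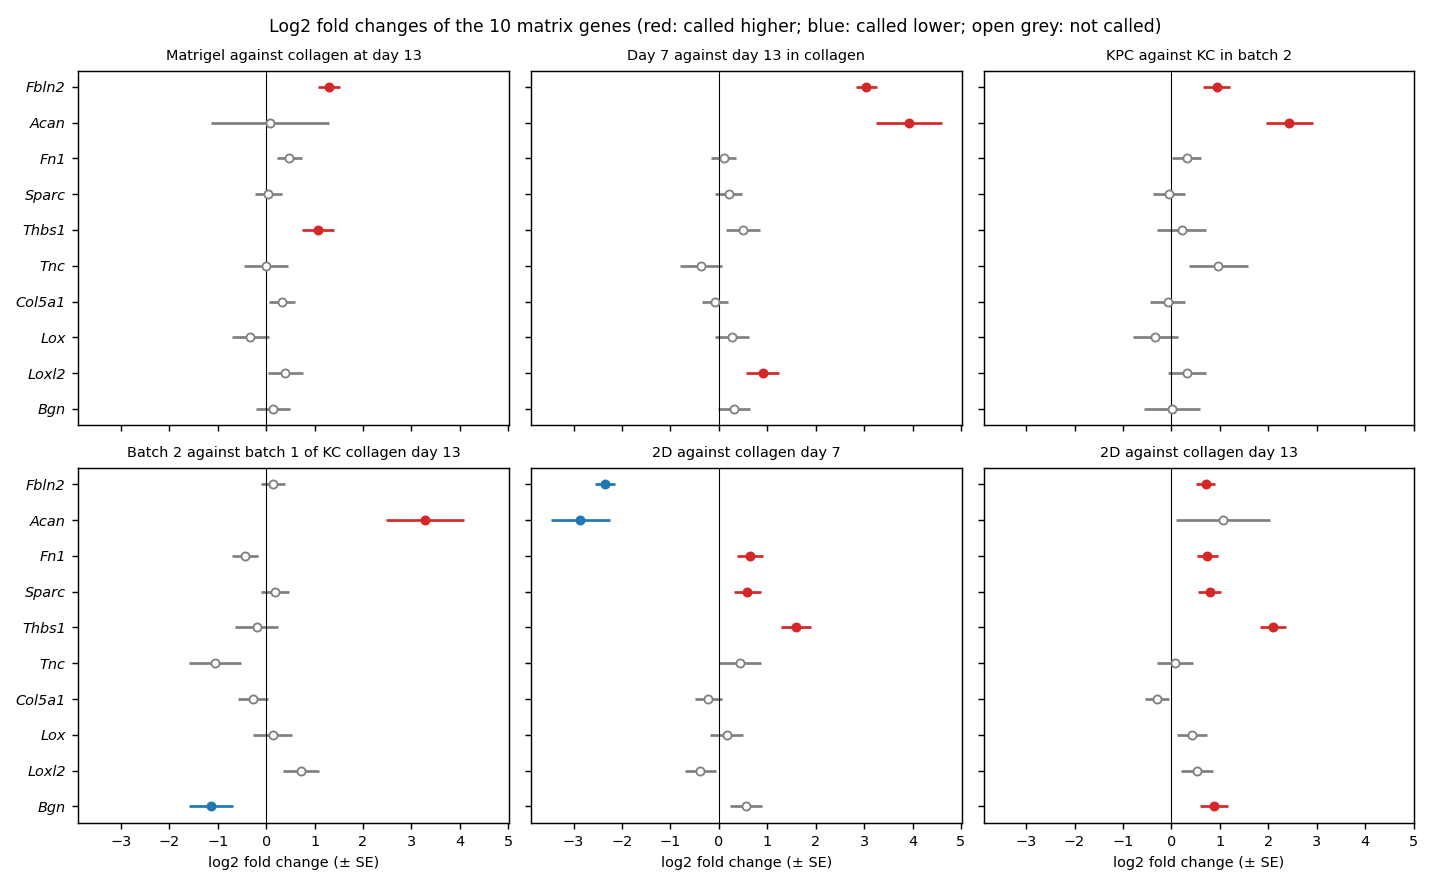
Log2 fold changes of the 10 genes (horizontal axis, ± SE of the fit) in the 6 comparisons, the first-named group over the second. Filled red points were called higher, filled blue points lower and open grey points were not called. Fbln2 and Acan lie far to the right at day 7 (3.05 and 3.93) and are the called points in KPC (0.93 and 2.44), where Tnc is as high as Fbln2 (0.96) but not called, and the error bar of Acan is widest where the compared groups were near the detection limit.

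Fibronectin (Fn1), which cells assemble into fibrils through their integrins, was well detected in all libraries. In collagen it was at 233, 251 and 167 CPM at day 7 and at 163, 224, 187, 271 and 169 CPM at day 13. These ranges coincided (log2 0.10 ± 0.26). In Matrigel it was at 300.2, 235 and 312 CPM, where the lowest library lay within the collagen range (log2 0.48 ± 0.26). The second batch had 142, 121 and 185 CPM in KC and 184, 165 and 209 CPM in KPC, and these overlapped too. In 2D the level of Fn1 was 498, 465 and 459 CPM in replicates 1 to 3, and 223, 187 and 221 CPM in replicates 4 to 6. Only the first set exceeded the organoids, and the second lay within the range of the collagen libraries.

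Sparc, a matricellular protein that binds collagen, showed the same division in 2D, with 260, 220.2 and 226 CPM in replicates 1 to 3 and 95.4, 89.8 and 123 CPM in replicates 4 to 6. Across all 17 organoid libraries it kept to 71.5 to 142 CPM, and the means of the 5 organoid groups were 95.5 to 110.2 CPM. No organoid comparison called it, and the largest of the 4 log2 differences was 0.20 ± 0.28 for day 7. The deviations of Fn1 and Sparc from their group means followed each other, with a Pearson r of 0.953 over the 23 libraries and of 0.897 over the 17 organoid libraries. This was the highest r among the pairs of the 10 genes. Such deviations share library size and composition, and the correlation is given as a description. The next pair was Sparc and Bgn over the 23 libraries (r = 0.777) and Fn1 and Lox over the 17 organoid libraries (r = 0.723).

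Thrombospondin-1 (Thbs1), a matricellular protein that can release TGF-beta from its latent form, was higher in 2D than in collagen organoids with either set of 2D libraries. It was at 30.1, 48.5 and 24.6 CPM in 2D replicates 1 to 3 and at 18.7, 23.5 and 21.2 CPM in replicates 4 to 6. All 17 organoid libraries but 1 lay below these, at 3.49 to 11.8 CPM, and the exception was a Matrigel library at 19.2 CPM. Against day 13 in collagen the 2D difference was 4.27-fold (log2 2.09 ± 0.28), or 2.48 with replicates 1 to 3 alone and 1.73 with replicates 4 to 6 alone. Against day 7 (10.3, 8.14 and 8.10 CPM) it was 3.02-fold (log2 1.59 ± 0.30). The 3 Matrigel libraries were at 11.8, 9.16 and 19.2 CPM, and the collagen libraries at 3.71, 3.84, 6.22, 11.2 and 5.78 CPM. Those ranges overlapped in 1 collagen library, replicate 4. The ratio was 2.09 (log2 1.07 ± 0.34), and it was not called without Matrigel replicate 1 (1.14 ± 0.40) or 3 (0.75 ± 0.37), without collagen replicate 1 (0.92 ± 0.35) or 2 (0.94 ± 0.36), or without collagen replicates 1 to 3 together (0.59 ± 0.40). KC and KPC of the second batch had 3.49 to 7.28 and 5.81 to 6.58 CPM.

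Tenascin-C (Tnc), a large glycoprotein typical of embryonic and wounded tissue, was low and spread widely. It reached 9.85 CPM in collagen replicate 4 of the first batch, beside 2.39 to 5.27 CPM in the other 4. In the second batch KC libraries had 1.99, 0.697 and 4.66 CPM, from 1 to 7 counts, and KPC libraries 4.47, 6.58 and 3.70 CPM. The group means of Tnc lay between 2.45 and 5.90 CPM, each with a neighbor that it overlapped, and no comparison called it. Col5a1 encodes a chain of type V collagen, which starts the assembly of collagen I fibrils. It kept to 4.47 to 17.4 CPM over all libraries, with group means of 8.35 to 13.6 CPM that differed by 1.63-fold, the smallest range of the 10 genes. None of the 6 comparisons called it.

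Biglycan (Bgn), a small leucine-rich proteoglycan that binds collagen fibrils, differed by batch. In collagen at day 13 it was at 15.8, 14.4, 10.5, 15.2 and 8.41 CPM in the first batch, and at 5.30, 5.58 and 6.66 CPM in KC and 7.67, 6.58 and 3.70 CPM in KPC of the second. All 6 libraries of the second batch lay below all 17 of the first. The difference between the KC groups was a log2 of -1.14 ± 0.45, 2.20-fold lower in the second batch. It rested on 8 to 10 counts per library in the second batch. It was not called when any of the second-batch KC replicates was left out (-1.03 ± 0.54, -1.10 ± 0.54 and -1.24 ± 0.56), nor without collagen replicate 1 (-1.05 ± 0.48), 2 (-1.09 ± 0.49) or 4 (-1.05 ± 0.49) of the first batch, nor without collagen replicates 1 to 3 together (-1.03 ± 0.56). Without those 3, Tnc and Loxl2 were the members called between the batches, beside 20.8% of all tested genes. KPC and KC did not differ in it beyond their spread (log2 0.01 ± 0.58). In the first batch the levels of Matrigel (11.4 to 17.5 CPM), day 7 (12.4 to 18.6) and day 13 overlapped. In 2D Bgn was at 50.5, 37.8 and 23.7 CPM in replicates 1 to 3 and at 15.5, 11.5 and 17.1 CPM in replicates 4 to 6.

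**Figure D3:**
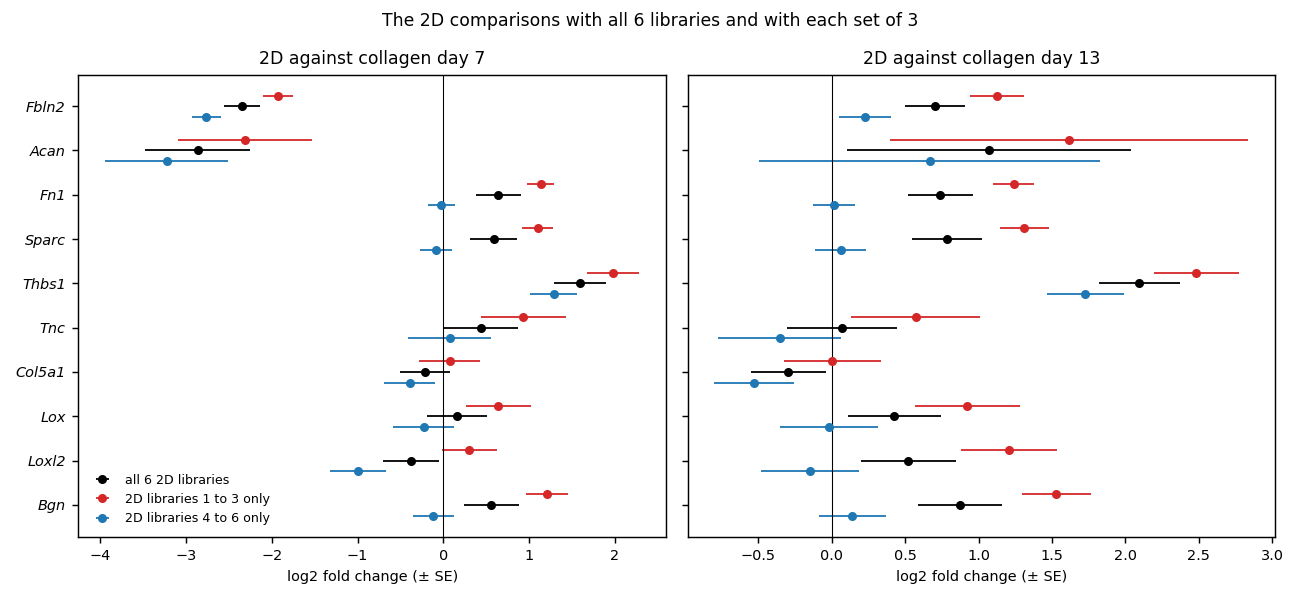
Log2 fold changes of the 10 genes (± SE) of 2D cells against collagen organoids of day 7 (left) and day 13 (right) with all 6 2D libraries, with replicates 1 to 3 only and with replicates 4 to 6 only. Fn1 and Sparc lie above 1 with replicates 1 to 3 and near 0 with replicates 4 to 6, whereas Thbs1 is above 1 in all 3 fits.

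The 2D calls of the other genes thus depended on the set of libraries. In 8 of the 10 genes, all but Acan and Col5a1, replicates 1 to 3 lay above replicates 4 to 6 in CPM without overlap. Beside this, 47.5% of all tested genes did not overlap in either direction. The 8 rest in part on the TMM factors given below. Against day 13 in collagen, 7 genes were called higher with replicates 1 to 3 alone, beside 54.9% of all tested genes called. With replicates 4 to 6 alone it was 1, Thbs1, beside 39.2%. The log2 difference of Fn1 was 0.74 ± 0.22 with all 6 libraries, 1.24 ± 0.14 with the first set and 0.018 ± 0.14 with the second. For Sparc the values were 0.79 ± 0.24, 1.31 ± 0.16 and 0.060 ± 0.17, for Bgn 0.87 ± 0.29, 1.53 ± 0.23 and 0.14 ± 0.23, and for Fbln2 0.70 ± 0.20, 1.13 ± 0.18 and 0.23 ± 0.18. Against day 7, the differences of Fn1 (0.64 ± 0.26) and Sparc (0.58 ± 0.28) changed sign with replicates 4 to 6 alone (-0.025 ± 0.16 and -0.085 ± 0.19). Both were already not called when any 1 of 2D replicates 1 to 3, or day 7 replicate 3, was left out, and Sparc not without day 7 replicate 2. Without collagen replicates 1 to 3, Fbln2 (0.57 ± 0.28), Fn1 (0.62 ± 0.32) and Sparc (0.73 ± 0.35) were not called against day 13 either, whereas Thbs1 (1.62 ± 0.35), Bgn (0.98 ± 0.42) and also Loxl2 (1.24 ± 0.46) were. The day 7 difference of Fbln2 stayed below 0 with either set (-1.93 ± 0.18 and -2.76 ± 0.17), as did that of Acan. Replicates 1 to 3 also had the smallest totals (1221451 to 1382736 counts, against 1649327 to 2091391) and TMM factors of 0.738 to 0.772, against 1.04 to 1.06. Scaled by total counts alone, the sets overlapped in Thbs1, Tnc, Lox and Bgn. The part of totals and TMM factors in the log2 differences by set was not tested.

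The libraries of a group also differed together in these genes elsewhere. Collagen replicate 4 of the first batch was above its group mean of log2 CPM in all 10 genes and the highest of 5 in 6 of them. In CPM its level of Loxl2 lay below the group mean (5.37 against 5.94 CPM). Replicate 3 of the second-batch KC organoids was the highest of 3 in 8 genes. The same counts were not taken over all tested genes, so nothing particular to the 10 genes is read from them. Collagen replicates 1 to 3 and replicates 4 and 5 of the first batch did not overlap in Acan and Lox, which were higher in replicates 4 and 5, and in Loxl2, which was lower there, beside 36.4% of all tested genes. Leaving out replicates 4 and 5 kept the number of called genes between day 7 and day 13 at 3, beside 50.5% of all genes. Thbs1 was then called in place of Loxl2. Leaving out replicates 1 to 3 kept the 3 named above, beside 46.8%.

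The other matrix genes gave the setting of the 10. Their lists were also chosen with earlier results of these data known, and the genes named are the called extremes of each list. Shares and adjusted p-values of the lists are therefore given as a description. Out of 113 genes in 6 lists (interstitial collagens, collagen processing and crosslinking, proteoglycans, glycoproteins, elastic fibre proteins and matrix receptors), 107 were in the table and 64 were tested. In Matrigel 21 of the 64 rose and 2 fell against collagen at day 13, which is 35.9% beside 12.9% of all genes. The receptors made up 8 of these, out of 15 tested. Itga2, the chain of the collagen-binding integrin with Itgb1, was at 90.3 ± 1.58 CPM in Matrigel and 28.5 ± 2.52 in collagen (3.16-fold, log2 1.66, edgeR adjusted p = 1.22e-07). With all 8 KC collagen libraries of day 13 its log2 difference was 1.02 ± 0.28 (adjusted p = 0.0232). Ccn2, a matricellular protein induced by TGF-beta and by stretch, was 3.92-fold higher (adjusted p = 3.47e-07) and Tgm2, a transglutaminase that crosslinks matrix proteins, 3.46-fold (adjusted p = 9.87e-07). Efemp1 and Ltbp3, of the fibulin and latent TGF-beta binding families, rose by 1.59-fold (adjusted p = 0.0165) and 1.44-fold (adjusted p = 0.0254), and neither was called without collagen replicates 1 to 3, nor Efemp1 without Matrigel replicate 1 and Ltbp3 without Matrigel replicate 2. Sdc4 rose 1.28-fold (adjusted p = 0.0137) and P4hb fell by 0.42 on the log2 scale (adjusted p = 0.0342), of which Sdc4 was lost in 2 of 18 alternatives and P4hb in 4, one of them without Matrigel replicate 3. Hspg2 (adjusted p = 0.0802) and Ccn1 (adjusted p = 0.0615) passed the test but were lost in 10 and 9 of 18 alternatives. With all 8 collagen libraries of day 13 the difference of Ccn1 turned to a log2 of -0.19.

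Between day 7 and day 13, 15 of the 64 genes were higher and 13 lower at day 7, 43.8% beside 55.1% of all genes. Those higher at day 7 included Pcolce2, an enhancer of procollagen processing (3.84-fold, log2 1.94, adjusted p = 5.07e-08, and log2 2.58 without collagen replicates 1 to 3), Ltbp1 (2.14-fold, adjusted p = 0.00124), Itga2 (2.27-fold, adjusted p = 2.80e-06) and Ccn1 (2.09-fold, adjusted p = 1.62e-05). The last 2 were not called with all 8 collagen libraries of day 13 (adjusted p = 0.125 and 0.420). Those lower at day 7 included P4ha2, a prolyl hydroxylase of collagen (1.94-fold, adjusted p = 0.000225), Spp1, osteopontin (1.89-fold, adjusted p = 7.32e-06), Sdc1 (1.51-fold, adjusted p = 1.68e-05) and Efemp2 (1.38-fold, adjusted p = 0.00416).

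KPC organoids had 10 of the 64 genes higher and 8 lower than KC, 28.1% beside 19.9%. Efemp1 was at 79.7 ± 6.70 CPM in KPC and 24.9 ± 5.90 in KC (3.20-fold, adjusted p = 6.04e-06), and Ccn2 was 2.40-fold higher (log2 1.26, adjusted p = 0.00815), or by a log2 of 0.67 against all 8 KC libraries (adjusted p = 0.0802). Ddr1, a collagen receptor kinase, was 1.59-fold higher (adjusted p = 0.0174) and was lost without KPC replicate 2. P4ha1 was 2.69-fold lower (adjusted p = 5.71e-08) and Spp1 2.43-fold lower (adjusted p = 2.09e-06). Tgm2, Efemp2 and Itgb6 also passed the test (adjusted p = 0.0531, 0.0404 and 0.0507) and were lost in 3, 4 and 6 of 14 alternatives. Between the batches of KC organoids, 8 of the 64 were higher and 14 lower in the second, 34.4% beside 37.3%. Ccn1 (2.90-fold, adjusted p = 4.23e-07), Itga1 (2.77-fold, adjusted p = 4.80e-06) and Colgalt1 (1.54-fold, adjusted p = 0.000484) were higher. Crtap (3.08-fold, adjusted p = 2.19e-05) and Itgb5 (2.25-fold, adjusted p = 7.56e-06) were lower. Col3a1, Spp1 and Efemp1 passed at adjusted p = 0.0501, 0.0629 and 0.0667 and were lost in 4, 9 and 10 of 17 alternatives.

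**Figure D4:**
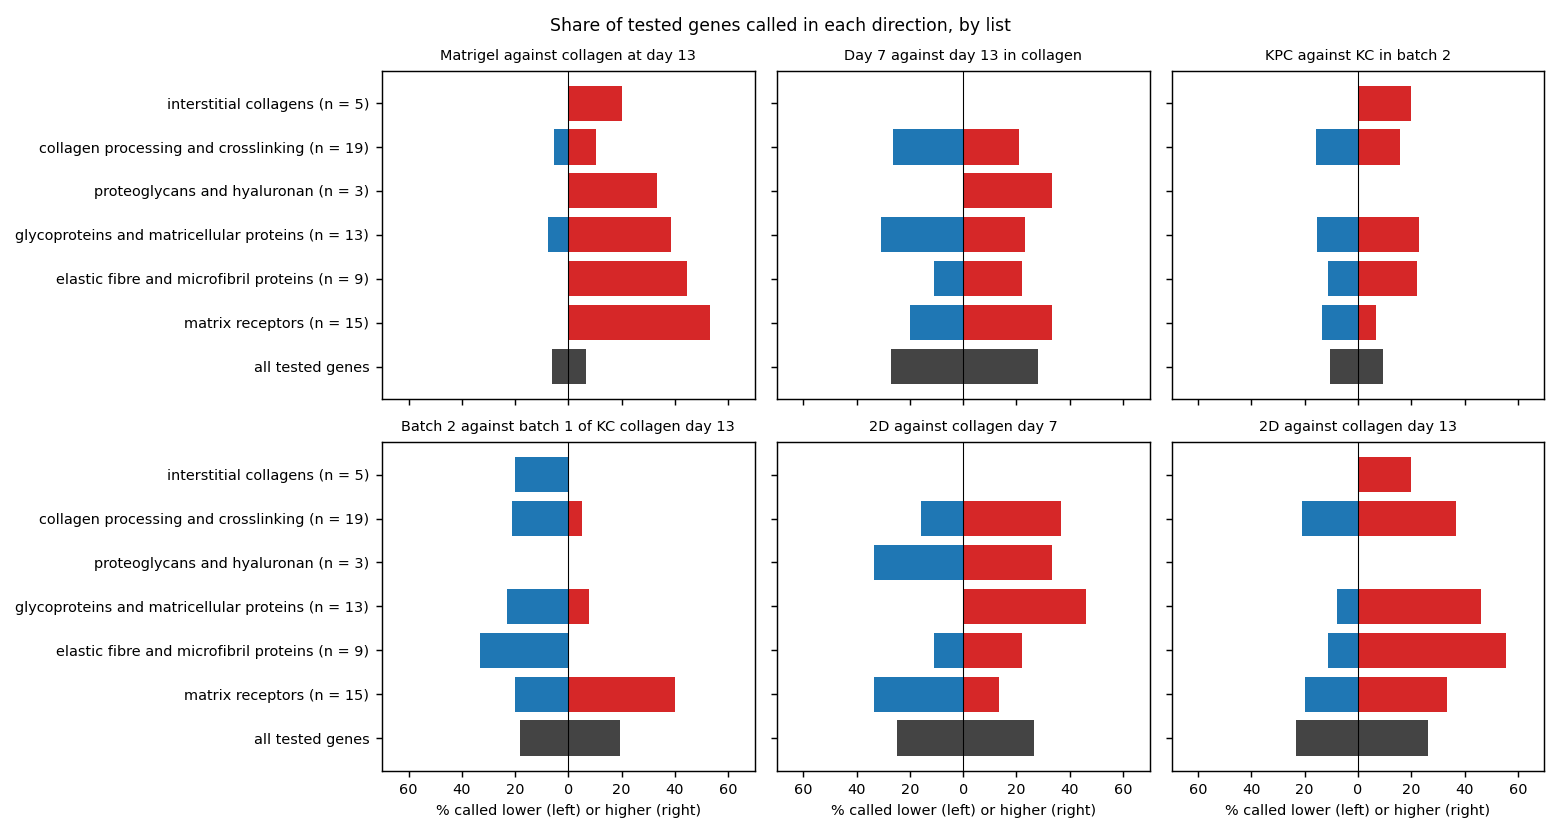
Percent of the tested genes of each of the 6 lists that were called lower (bars to the left) or higher (bars to the right) in each of the 6 comparisons, with all tested genes in dark grey at the bottom of each panel. The number of tested genes in a list is given beside its name and is as low as 3. In Matrigel the receptors have 8 of 15 genes higher.

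Against day 7 organoids, 18 of the 64 genes were higher and 10 lower in 2D, 43.8% beside 51.2%, and against day 13 organoids 24 were higher and 9 lower, 51.6% beside 49.6%. Ccn2 was at 127 ± 31.0 CPM (n = 6) in 2D, 4.28-fold over day 7 (adjusted p = 3.19e-08) and 6.71-fold over day 13 (adjusted p = 4.73e-11). Tgm2 was 6.30-fold and 2.15-fold higher (adjusted p = 4.82e-08 and 7.64e-05). Igfbp7, a secreted glycoprotein, rose 1.87-fold against day 7 (adjusted p = 4.30e-06), Efemp1 1.61-fold (adjusted p = 0.00476), Efemp2 1.61-fold (adjusted p = 0.000132) and Sdc4 1.61-fold (adjusted p = 3.53e-06), while Pcolce2 was 3.04-fold lower (adjusted p = 1.62e-06) and Itgb1 1.40-fold lower (adjusted p = 0.000281). Against day 13, Spp1 was 1.62-fold higher (adjusted p = 3.36e-05), P4ha1 1.36-fold lower (adjusted p = 0.000924) and Sdc1 1.49-fold lower (adjusted p = 3.48e-06). Itga2 was 1.70-fold higher than at day 13 (adjusted p = 0.000324), which was lost with all 8 KC collagen libraries of that day. All of these were also called with either set of 2D libraries alone. The number of called genes was not as steady. With replicates 1 to 3 alone, 40 genes were called against day 7 and 44 against day 13, beside 57.4% and 54.9% of all tested genes. With replicates 4 to 6 alone it was 24 and 23 of 62 tested, beside 46.2% and 39.2%.

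For the 8 genes with at least 10 counts per library on average, the genes with the most similar profile were found among 7857 or 7858 others with a group mean of at least 20 CPM by the Pearson r of log2 CPM over the 23 libraries. These values describe libraries that share groups, depth and the 2D sets. For Fbln2 the first 2 were Hmga2 (r = 0.947) and Pmepa1 (r = 0.934), and over the 17 organoid libraries alone r was 0.956 and 0.969. For Fn1 they were Prkcb (r = 0.914), Gadd45a (r = 0.901) and Timp3 (r = 0.899), and for Sparc Prkcb (r = 0.910), Hspb11 and Rpl17-ps10. Over the organoids alone those of Fn1 were 0.762 to 0.822, and those of Sparc 0.554 to 0.732. For Thbs1 they were Serpinb9 (r = 0.898), Ccn2 (r = 0.896) and Gstm5 (r = 0.891), and for Bgn Naa20 (r = 0.930), Oaf (r = 0.928) and Ifitm3 (r = 0.922). Loxl2 was closest to Cited2 (r = 0.796), Lox to Col1a2 (r = 0.721) and Col5a1 to Ythdf3 (r = 0.598). Acan and Tnc had too few counts for the search.

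In the annotation on GRCm38, Fbln2, Acan, Sparc and Bgn overlap no other gene. Fn1, Thbs1, Tnc, Col5a1, Lox and Loxl2 each have an exon that overlaps the span of a gene on the opposite strand. Whether exons of both genes overlap was not examined. Loxl2 also has an exon that overlaps Mir6950 on the same strand. Whether counting used the strand is not given in the sources used here, so that for those 6 genes reads of the antisense partner cannot be told apart.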

How the data were processed

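The libraries were made from poly(A) RNA with oligo-dT primers that carry unique molecular identifiers (UMIs). Per the labels, the authors aligned reads to GRCm38. The deposited table holds their UMI counts per gene and library, for which they used GENCODE M25 and version 1.0 of the Drop-seq pipeline. The counts are raw, with no normalization or filter. All 23 libraries were fitted together in edgeR 4.0.16 (R 4.3.3), with TMM factors and filterByExpr over the 6 groups. Calls needed an adjusted p-value (Benjamini-Hochberg, quasi-likelihood test) under 0.1. Each SE comes from the fit. Counting intervals are exact binomial ones at 95% and cover counting error only.

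The members and lists were chosen with earlier results of these data known. In each list and comparison, the called genes with the highest and lowest log2 fold change were named if the groups did not overlap and the higher mean was at least 20 CPM. For likeness, log2 CPM had a prior count of 2. The fit was tested on simulated data. Alternatives were DESeq2 1.42.0, its size factors, library size scaling, other filters, an adjusted p-value under 0.05, a replicate block, the compared groups alone, 8 collagen libraries, each library left out, and the sets of 2D and collagen libraries left out, the last added after seeing the data. Positions are from GENCODE M21 and promoters from RefSeq. Some alleles of the genotypes and some genes are not reported here.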

Additional observations from a re-analysis of the deposited data

How the results depend on the processing

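The number of called members between 2D and day 7 moved from 5 to 3 with library size scaling, beside 47.7% of all tested genes. It moved to 2 in a fit of the compared groups alone, beside 43.2%, where the filter left 9 members without Acan. Between the batches it moved from 2 to 4 with library size scaling, beside 36.1%. There it was 1 (Bgn) with a filter at a mean of 10 counts, beside 39.7%. At an adjusted p-value under 0.05 it was 1 (Acan), beside 30.2%. In KPC against KC it was 1 with the mean filter, which removes Acan and Tnc, beside 20.7%. For 2D against day 13 it moved from 5 to 1 without 2D libraries 1 to 3, beside 39.2% of all tested genes. Without collagen libraries 1 to 3 it moved to 3, beside 42.8%, and for Matrigel from 2 to 1, beside 9.50%. Among the matrix lists, 14 genes were called in Matrigel without collagen libraries 1 to 3, beside 9.50%. Between the batches it was 14 at an adjusted p-value under 0.05, beside 30.2%, or 13 without those libraries, beside 20.8%. Library size scaling moved the median log2 difference of all genes to -0.20 for 2D against day 13, -0.14 for 2D against day 7, -0.18 between the batches and 0.13 for KPC. The log2 difference of Ccn1 in Matrigel reversed to -0.19 with all 8 collagen libraries, and those of Fn1 and Sparc in 2D against day 7 reversed to -0.025 and -0.085 without 2D libraries 1 to 3. Without single libraries, called members ranged from 3 to 6 (2D against day 7), 1 to 3 (between batches), 1 to 2 (KPC) and 1 to 2 (Matrigel), and called list genes from 18 to 35 (2D against day 7) and 12 to 21 (between batches). The shares of all tested genes called without single libraries are not given here, so nothing is read from these ranges about the members or lists. The cause of the moves in this section was not tested, except that sets left out leave fewer libraries. Deviations of same-numbered libraries of compared groups had an r from -0.12 to 0.19 over all tested genes. In 2D and first-batch collagen these deviations also hold the differences between the sets. The values therefore cannot decide whether the numbers pair the libraries, and the main fit held no pairing. With the replicate block, 1 member (Fbln2) was called in Matrigel against collagen, and the day 7 call of Loxl2 was lost (0.53 ± 0.26), while the other counts of calls stayed within 1.5 times. Of 1011 single-gene values under alternatives that left out no single library, 940 kept their direction and side of the threshold or moved by less than the spread, and of 886 values without a single library 838 did. Depth limits Acan and Tnc most, which had 0 to 7 counts per library in some groups.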
